A study of Mus musculus with 6 samples.

Results

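The SCAN domain zinc finger family was followed in mouse embryonic stem (ES) cells with a knockout of Zscan5b, itself a member of the family, and in wild type ES cells. The members were the array probes that carry the name of a listed family gene, older and newer symbols included, with the Zscan4 genes left out. Of 37 listed symbols, 30 were on the array, as 30 genes among 30222 gene names, with 44 probes in all. The symbols Zscan25, Zscan26, Zkscan7 and Zkscan8 were represented by their older names Zfp498, Zfp187, Zfp167 and Zfp192, Zfp307 and Zfp95 had no probe of that name, and Zfp24 was not analysed here. Total RNA of each sample was labelled with Cy3 and hybridised to a 1-colour oligonucleotide array, with 3 Zscan5b knockout samples and 3 wild type samples. In both groups leukemia inhibitory factor and a layer of mouse embryonic fibroblasts stopped by mitomycin C kept the cells undifferentiated, and the samples were described as biological replicates. The labels give no strain, no position of the deletion and no word on whether the knockout samples were separate clones, so p-values measure the spread between these samples only.

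The SCAN domain is a leucine-rich protein interaction module through which family members form homodimers and heterodimers. Most members join it to an array of C2H2 zinc fingers that bind DNA. Most Zkscan proteins also carry a KRAB domain, which recruits the corepressor Trim28, and a few members have lost the zinc fingers or carry other domains. Many family genes lie in clusters of neighbours that arose by duplication. The human protein ZSCAN5B is known to bind RNA polymerase III genes, and Zscan10 is a transcription factor of pluripotent cells.

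Values are log2 signals relative to the 75th percentile of each array, so a value of 0 lies at that percentile, and every fold change is knockout minus wild type on the log2 scale. A probe entered the test if 3 or more of the 6 arrays read it well above background. This held for 40 member probes and for 28 of the 30 genes. Where a gene had several probes, the tested probe with the highest mean stood for it. The brightness of a probe depends on its sequence as well as on its RNA, so levels are compared between arrays and not between genes. Zfp498 and Zkscan16 were not well above background on any array, and no fold change is given for them.

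The arrays set limits on every comparison. The knockout arrays lay on a slide and scan of their own and so did the wild type arrays, so genotype and slide cannot be told apart. All 10 ES cell markers examined were well above background on all 6 arrays. Feeder fibroblast markers (11 tested of 12) had a list mean of -0.69, -0.18 and -0.63 in knockout replicates 1 to 3, against -0.69, 1.19 and 1.00 in wild type replicates 1 to 3, on a centred log2 scale. The means of 4 tested endoderm markers were 0.33, 0.67 and 0.67 in the knockout arrays, against -0.61, 0.07 and -1.14 in the wild type arrays. Afp, the remaining marker of the 5 listed, was well above background on no array. The means of 2 tested trophoblast markers, Krt8 and Krt18, were 0.31, 0.31 and 0.78 in the knockout arrays, against -0.77, -0.49 and -0.14 in the wild type arrays. Of the 4 listed, Tpbpa was well above background on no array and Cdx2 on 1 wild type array only. Neither was tested, so the list mean rests on these keratins alone. The feeder signal varied inside the wild type group. The endoderm mean and the mean of Krt8 and Krt18 were higher on every knockout array than on any wild type array. The mesoderm and neuroectoderm means overlapped between the groups, and no gene of these lists was called. In such bulk RNA a smaller share of a cell type and less RNA per cell cannot be told apart, and the part of these other cells in the results on the family was not tested.

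No member of the family passed the limma test at an adjusted p of 0.05 (0 higher and 0 lower of 28 genes), where 0.508% of all 20453 genes tested by representative probe were called. The knockout differences ran from a log2 fold change of -1.32 (Zscan5b) to 0.86 (Zkscan4), and the limma adjusted p of the 28 genes from 0.107 to 0.918. Positive and negative differences were nearly balanced, with 16 genes above 0 and 12 below, beside 46.4% of all genes above 0. The family median was 0.031, against -0.028 over all representative probes. With arrays aligned on their median instead of the 75th percentile the family median was -0.017. That of all tested probes was then -0.059, beside -0.011 in the scaling used here. Both scalings subtract a constant from each array, so the distance between the family and all probes could not change. Without a detection filter the median of all 39429 probes was 0.050. The family median stayed at 0.031 because it was still taken over the same 28 tested genes. These medians cover unlike sets, so their order is not read as a result.

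At an unadjusted p below 0.05, 7 family genes were counted (4 higher, 3 lower), where the share over all genes was 21.7% (9.63% higher and 12.1% lower). The knockout and wild type arrays did not overlap in 9 of 28 genes (5 higher, 4 lower), against 28.9% of all genes (12.5% higher and 16.4% lower). Both counts lie near those backgrounds. The 9 genes are Zscan5b, Zscan20, Zscan21 and Scand1 on the lower side and Pgbd1, Zkscan4, Zfp187, Zfp202 and Zscan18 on the higher side. Among the Zscan genes 5 of 10 were above 0 and among the Zkscan genes 7 of 10, so both groups held members of either sign.

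**Figure D1:**
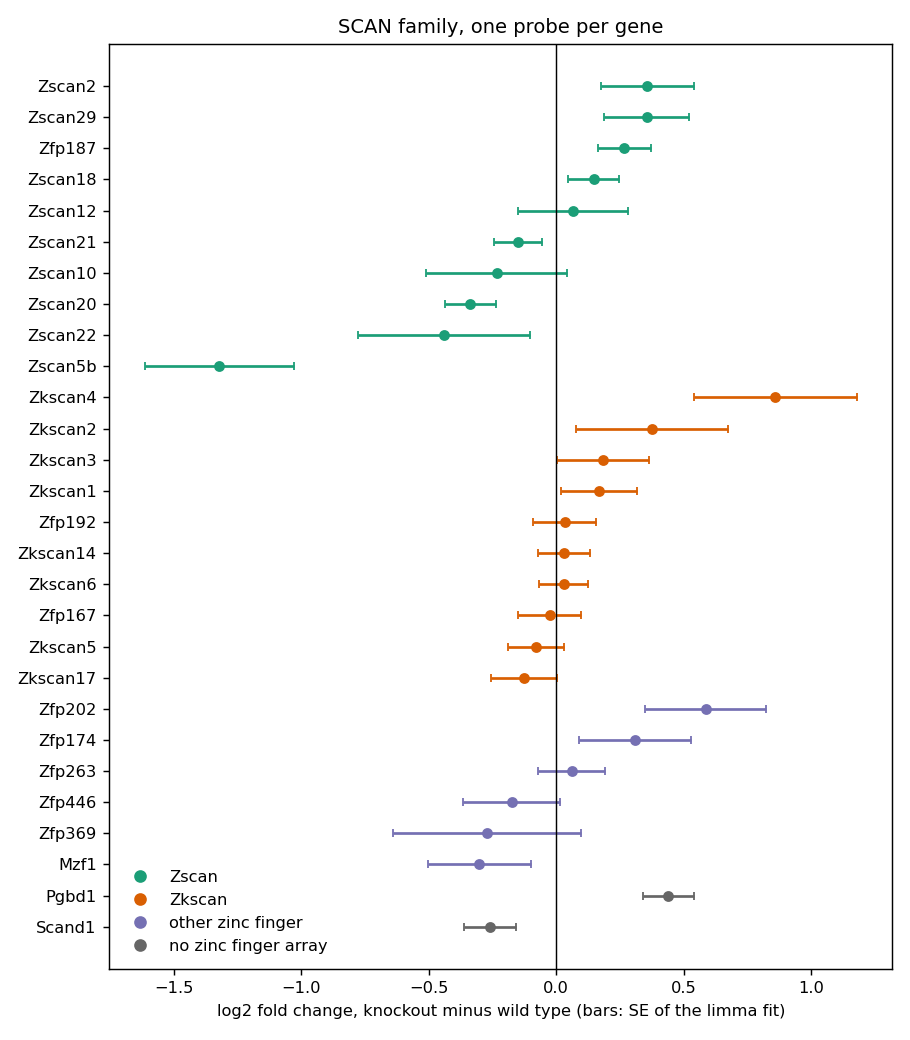
Log2 fold change, knockout minus wild type, of the 28 tested family genes on the horizontal axis, with the SE of the limma fit as bars (3 arrays per group). Genes are grouped by name and not by domain: Zscan, Zkscan, other zinc finger names, and Scand1 with Pgbd1. Older symbols are placed under their newer name. Zscan5b at -1.32 lies lowest and Zkscan4 at 0.86 highest, and no gene passed the test.

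Zscan5b, the targeted gene, was measured by a single probe at mm9 chr7:6190808-6190867, listed in the plus orientation. The files give the gene but not the exon, and the sequence is shown because it is the only measure of the targeted RNA.
Zscan5b probe: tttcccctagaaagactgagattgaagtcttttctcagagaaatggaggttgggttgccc
The longest run it shares with a probe of another gene on the array is 14 bases. Zscan5b read -4.47, -5.17 and -5.13 in knockout replicates 1 to 3, against -3.66, -4.03 and -3.12 in wild type replicates 1 to 3. Every knockout array was below every wild type array, yet the probe stayed well above background on all 6. The limma fit put the log2 fold change at -1.32 ± 0.29 (SE, n = 3 per group), a 2.498-fold lower signal with an adjusted p of 0.107. An exact two-sided permutation test gave p = 0.1, the smallest that 3 against 3 arrays allow. Since the labels do not place the deletion, a probe outside the deleted part would check nothing about the genotype. Zscan5b passed the test without wild type replicate 2 (log2 fold change -1.54, adjusted p 0.0416) and with array weights (-1.58, adjusted p 0.0448), settings in which 9.49% and 3.15% of all genes were called. Taking every alternative that gave a value, the limma adjusted p of Zscan5b spanned 0.0416 to 0.346.

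Of the other 9 tested Zscan genes none passed. Zscan20, a SCAN zinc finger gene on chromosome 4, read -1.85, -1.97 and -1.95 in the knockout arrays, against -1.48, -1.62 and -1.65 in the wild type arrays. Its arrays did not overlap, and the log2 fold change was -0.34 ± 0.10 (SE, n = 3 per group, limma adjusted p 0.156). Zscan21, a gene studied in the proliferation of cerebellar granule cell precursors, read 2.17, 2.06 and 2.14 in the knockout arrays, against 2.28, 2.21 and 2.32 in the wild type arrays, a difference of -0.15 ± 0.09. The knockout arrays were again all lower, by less than the difference in Zscan20. Zscan18 read -0.20, -0.21 and -0.08 in the knockout arrays, against -0.33, -0.38 and -0.22 in the wild type arrays, and the gap between the nearest arrays of the groups was small beside the spread within them. Zscan2 and Zscan29 were at 0.36 and 0.35, with limma adjusted p of 0.298 and 0.267, and overlapped between the groups.

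Zscan10, which helps to maintain pluripotency in mouse ES cells together with Pou5f1 and Sox2, overlapped between the groups. Its representative probe read 1.72, 1.65 and 1.62 in the knockout arrays, against 1.88, 1.34 and 2.47 in the wild type arrays. The wild type values enclose all knockout values. The log2 fold change was -0.23 ± 0.28 (SE, n = 3 per group, limma adjusted p 0.631), and the other probe gave 0.18.

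**Figure D2:**
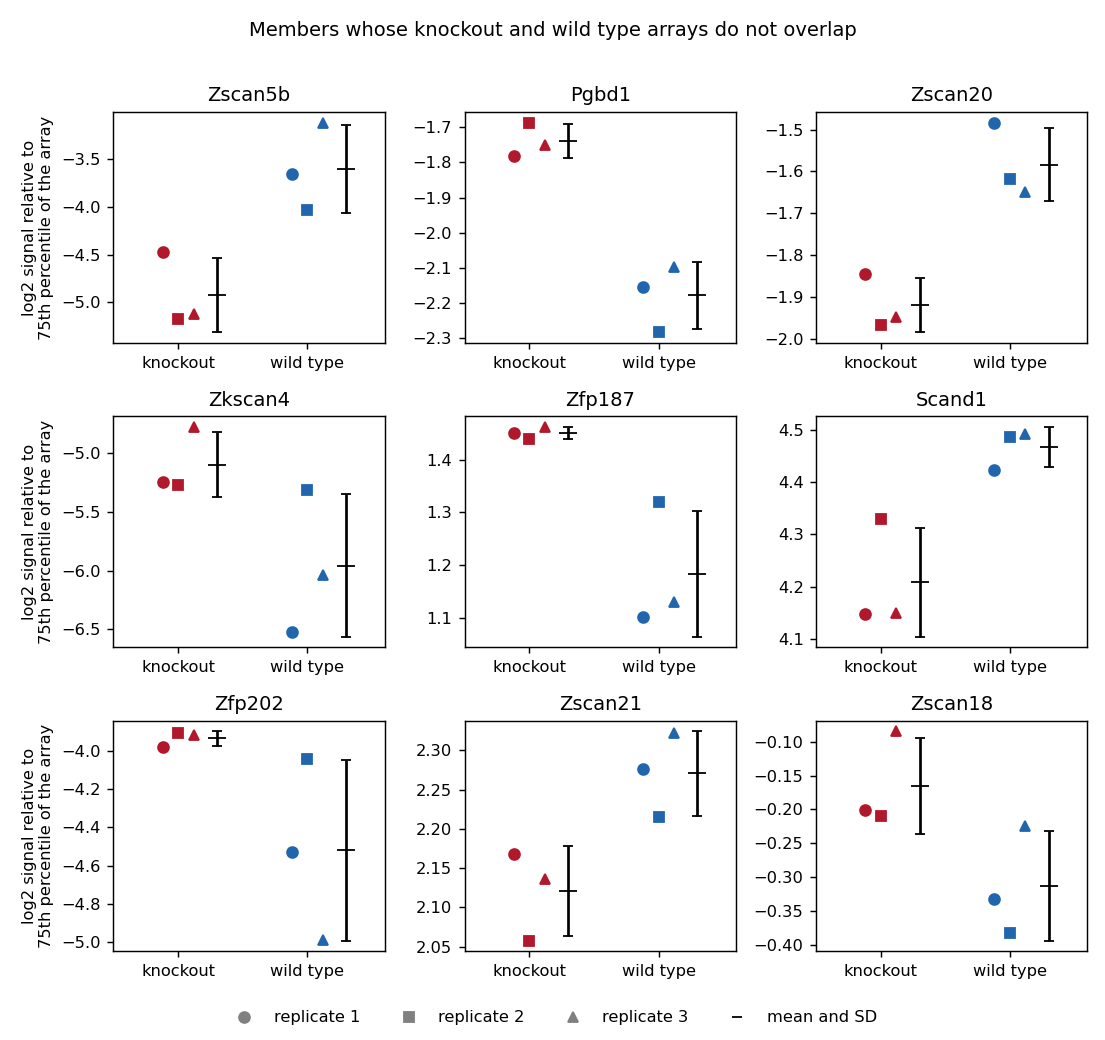
Log2 signal relative to the 75th percentile of the array for the 9 family genes whose groups do not overlap, knockout in red and wild type in blue. Points are single arrays with a symbol per replicate, and the black mark shows mean and SD (n = 3); each panel has its own scale.

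Family genes of a cluster on chromosome 13 all lay on the higher side in the knockout arrays, without a call. In the order of their probes these are Zscan12, Zkscan3, Pgbd1, Zfp187, Zkscan4 and Zfp192, within 157037 bases of mm9 chromosome 13 (21461323 to 21618359). The interval was singled out after the values were seen. All 10 tested member probes there had a positive log2 fold change, from 0.033 to 0.86 with a median of 0.30, where 48.6% of all tested probes were positive. None was called, where 0.465% of all tested probes were, and the arrays did not overlap in 4 of the 10 probes, where 29.0% of all tested probes separated the groups and 13.6% did so on the higher side. Probes of 1 gene share their RNA and neighbours share a locus, so these are not 10 independent measurements.

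Pgbd1, which joins a SCAN domain to a transposase domain derived from piggyBac, showed the smallest unadjusted p in the cluster by representative probe. It read -1.78, -1.69 and -1.75 in the knockout arrays, against -2.16, -2.28 and -2.10 in the wild type arrays. The arrays were tight in both groups and did not overlap. The log2 fold change was 0.44 ± 0.10 (SE, n = 3 per group, limma adjusted p 0.110).

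Zfp187, now named Zscan26, had a pair of probes in agreement. The brighter probe read 1.45, 1.44 and 1.46 in the knockout arrays, against 1.10, 1.32 and 1.13 in the wild type arrays (log2 fold change 0.27 ± 0.10, adjusted p 0.211). The dimmer probe read -3.38, -3.49 and -3.38 in the knockout arrays, against -3.92, -3.85 and -4.01 in the wild type arrays (0.51 ± 0.10, adjusted p 0.0886). Both probes separated the groups completely, and the dimmer probe had the smallest limma adjusted p of any member probe.

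Zkscan4 read -5.24, -5.27 and -4.78 in the knockout arrays, against -6.52, -5.32 and -6.04 in the wild type arrays, and wild type replicate 1 was not well above background. Wild type replicate 2 lay just under the knockout arrays while the other wild type arrays were far lower. The log2 fold change was 0.86 ± 0.32 (SE, n = 3 per group), the highest of the family in this fit, with a limma adjusted p of 0.203.

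The remaining genes of the cluster overlapped between the groups at their representative probes. Zkscan3, whose human counterpart represses autophagy and lysosome genes, was at a log2 fold change of 0.18 at that probe and of 0.59 at a dimmer probe. Zscan12 was at 0.066 and 0.14 and Zfp192 at 0.033 and 0.33 over their probes. The brighter Zkscan3 probe lies at mm9 chr13:21479743-21479802 in the minus orientation, and Zfp167 has a probe of the same kind at chr9:122805131-122805190 in the plus orientation. Both are shown because they hold the codon spacing of a C2H2 zinc finger, the repeated part of these genes, and the capitals mark the cysteine and histidine codons.
Zkscan3 probe: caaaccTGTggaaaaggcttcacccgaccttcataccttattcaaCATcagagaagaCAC
Zfp167 probe: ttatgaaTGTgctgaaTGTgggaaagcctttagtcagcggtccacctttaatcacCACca
The finger codons were sought as spaced TGT or TGC and CAT or CAC codons in an open frame of the probe strand, a pattern found in 2 of 44 member probes and in 0.19% of the 39429 gene probes. The longest run shared with a probe of another gene was 13 bases for Zkscan3 and 16 bases for Zfp167.

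Inside the same interval 4 tested probes belong to no member, and 0 of them had a positive log2 fold change. They were TC1619416 at -0.41, Nkapl at -0.47, Gm10065 at -0.24 and Zfp389 at -0.24, all dim (limma adjusted p 0.489 to 0.629). Zfp389 was well above background on wild type arrays only, so it entered the test through the group where it was higher. TC1619416 and Nkapl were not well above background on every array. The signs of these 4 probes therefore give no contrast with the members. Zfp369, the other member gene on chromosome 13, lies outside the interval and was at -0.27. The positive count of the cluster was 7 of 10 without wild type replicate 1, 8 of 10 without knockout replicate 2 and 9 or 10 of the probes tested in the other settings, among them 9 of 10 with quantile normalization and with arrays aligned on their median. Feeder markers were high in wild type replicates 2 and 3, while 5 of the 6 cluster genes (Zscan12, Zkscan3, Zfp187, Zkscan4 and Zfp192) were highest among the wild type arrays in replicate 2 and lowest in replicate 1 at their representative probes. Their part in the cluster was not tested.

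**Figure D3:**
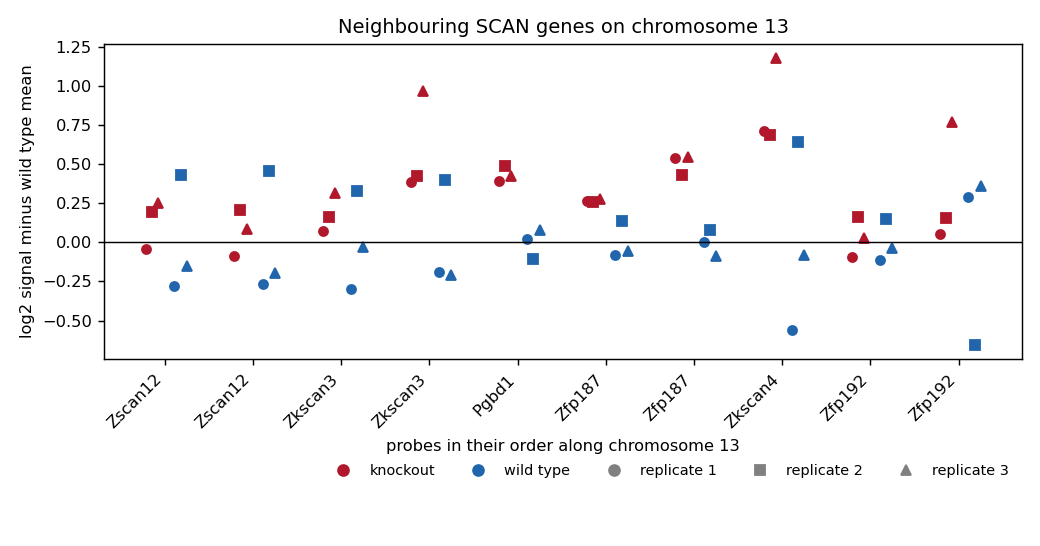
Log2 signal minus the wild type mean for the 10 member probes between Zscan12 and Zfp192, in their order along chromosome 13, with knockout arrays in red and wild type arrays in blue. The mean of the knockout arrays is above 0 at all 10 probes, and the groups do not overlap at Pgbd1, at both Zfp187 probes and at Zkscan4.

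Among the Zkscan genes outside the cluster none passed the test, and none separated the groups at its representative probe. Zkscan17, known as an NSD1-interacting protein, read 2.78, 2.91 and 2.72 in the knockout arrays, against 3.04, 2.72 and 3.03 in the wild type arrays (log2 fold change -0.13 ± 0.13). Zkscan5 read 2.33, 2.46 and 2.36 in the knockout arrays, against 2.34, 2.46 and 2.60 in the wild type arrays (-0.078 ± 0.11). Its sign turned under quantile normalization. Zkscan6, Zkscan14 and Zfp167 were at 0.029, 0.029 and -0.025.

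Zkscan1, the host gene of a circular RNA in human cells, had probes whose differences ran in opposite directions. Its probes lie in the plus orientation of mm9 chromosome 5. The first (chr5:138545652-138545711) and the third (chr5:138548978-138549037) each hold the polyadenylation hexamer AATAAA, while the second (chr5:138548280-138548339) does not. The stretches around the hexamer, in capitals, are shown because they place these probes near possible ends of the RNA.
Zkscan1 probe 1: caaaggttacactgtaAATAAActctttct
Zkscan1 probe 3: ccagatgtttagtagatgttcAATAAAtaa
The hexamer was found on the probe strand in 9 of 44 member probes and in 12.6% of the 39429 gene probes, and on the opposite strand in 5 member probes and in 4.03% of gene probes. A match in a probe does not show that an RNA ends there.

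The first Zkscan1 probe read -1.25, -1.44 and -1.45 in the knockout arrays, against -0.88, -1.22 and -0.74 in the wild type arrays (log2 fold change -0.44 ± 0.15, adjusted p 0.190). The third read 0.52, 0.60 and 0.46 in the knockout arrays, against 0.20, 0.44 and 0.15 in the wild type arrays (0.27 ± 0.12, adjusted p 0.244). Both separated the groups, in opposite directions. The second and brightest probe read 4.49, 4.32 and 4.13 in the knockout arrays, against 4.06, 4.02 and 4.37 in the wild type arrays (0.17 ± 0.15), and it shares a run of 30 bases with a probe of Gm10144. The third probe minus the first came to 1.91 ± 0.14 in the knockout arrays and 1.20 ± 0.40 in the wild type arrays (SD, n = 3). This comparison was chosen after the values were seen, and the opposite separation at these probes fixes its direction, so no test is given.

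**Figure D4:**
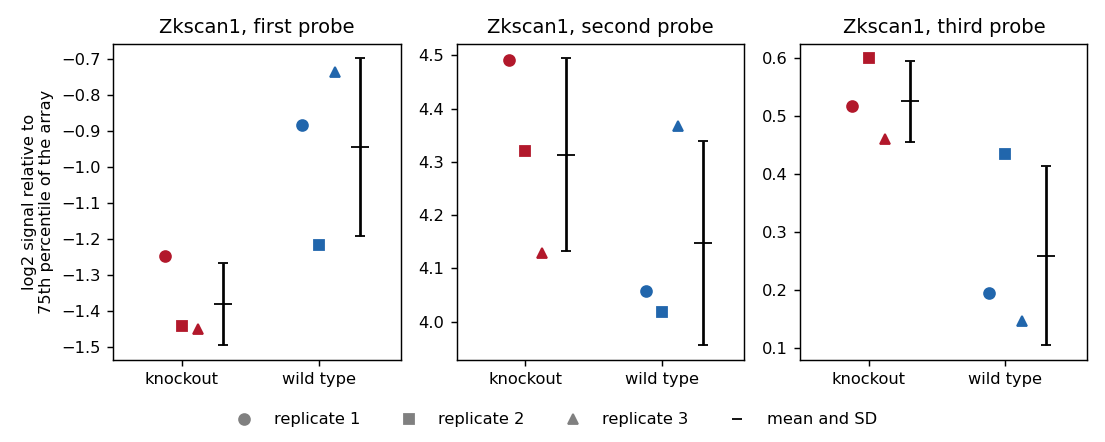
Log2 signal relative to the 75th percentile of the array at the 3 Zkscan1 probes in their order along the gene, with knockout in red and wild type in blue, a symbol per replicate, and the mean with SD in black (n = 3). The knockout arrays are lower at the first probe and higher at the third, and the groups overlap at the second.

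Of 6 tested genes with other zinc finger names none passed. Zfp202, whose human counterpart represses genes of lipid metabolism, read -3.98, -3.91 and -3.92 in the knockout arrays, against -4.53, -4.04 and -4.99 in the wild type arrays. The knockout arrays agreed closely and all lay above the more scattered wild type arrays, and the log2 difference was 0.59 ± 0.24 (SE, n = 3 per group, limma adjusted p 0.223). Mzf1, the myeloid zinc finger gene, was at -0.30, Zfp446 at -0.18, Zfp263 at 0.062 and Zfp174, which was not well above background in wild type replicate 1, at 0.31.

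Scand1, a SCAN protein with no zinc fingers that can pair with other members, read 4.15, 4.33 and 4.15 in the knockout arrays, against 4.42, 4.49 and 4.49 in the wild type arrays. The knockout arrays were all lower, and the log2 difference was -0.26 ± 0.10 (SE, n = 3 per group, limma adjusted p 0.214).

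The wild type arrays differed among themselves more than the knockout arrays did. The SD was larger in wild type than in the knockout for 25 of 28 family genes, against 72.8% of all genes. The median SD of the family was 0.10 in the knockout and 0.24 in wild type, beside 0.13 and 0.21 over all genes. Wild type replicate 2 was the lowest wild type array for 12 family genes and the highest for 11. The same count was not made over all genes, so it is not read as a trait of the family. Against the mean of replicates 1 and 3 it was lower by 1.16 in Zscan22, where the values were -1.59, -1.74 and -1.97 in the knockout arrays, against -1.05, -2.10 and -0.83 in the wild type arrays. It was higher by 1.02 in Zkscan2, where the values were -3.87, -3.53 and -3.61 in the knockout arrays, against -4.34, -3.37 and -4.43 in the wild type arrays. In both genes the knockout arrays lay between wild type replicate 2 and the other wild type arrays.

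Without wild type replicate 2, 5 of 28 family genes passed the limma test, where 9.49% of all genes did (4.89% higher and 4.60% lower). Zkscan4 (1.18 ± 0.22, adjusted p 0.0429), Zfp202 (0.83 ± 0.16, adjusted p 0.0434) and Zkscan2 (0.72 ± 0.14, adjusted p 0.0438) were then higher in the knockout arrays, and Zscan5b and Zscan22 (-0.83 ± 0.15, adjusted p 0.0421) were lower (SE, 3 knockout and 2 wild type arrays). Zkscan2 and Zscan22 are named because they make up this count. With all 6 arrays and no array weights none of these 5 passed, and with array weights Zscan5b did. The feeder list mean was 1.19 in wild type replicate 2 and 1.00 in wild type replicate 3, and its part in these calls was not tested.

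**Figure D5:**
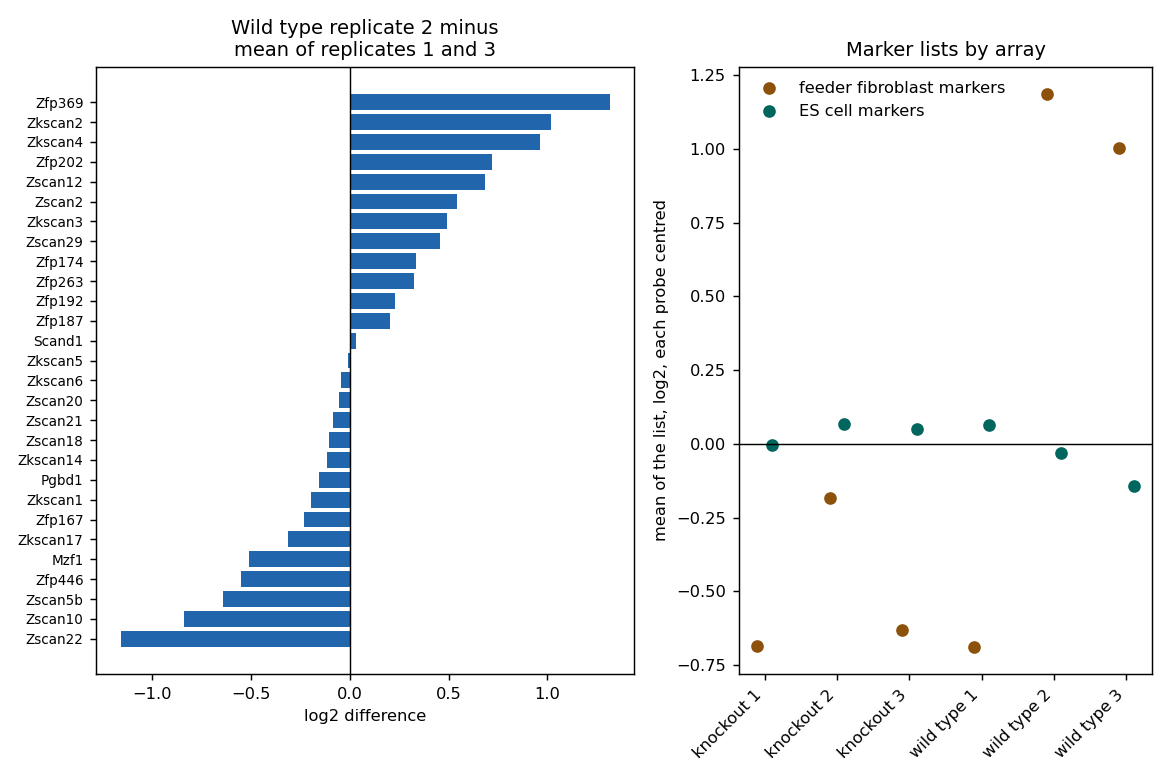
Left, log2 signal of wild type replicate 2 minus the mean of wild type replicates 1 and 3 for the 28 tested family genes; right, centred log2 mean of the feeder fibroblast and ES cell marker lists on each array. The family spreads to both sides, from -1.16 in Zscan22 to 1.32 in Zfp369, and feeder markers are high in wild type replicates 2 and 3.

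Genes linked to the family did not pass either. Of SCAN domain genes outside the listed members, 6 were measured and tested, 1 with a positive and 5 with a negative log2 fold change, with 0 called and a median of -0.14. Zfp110 read 0.24, 0.37 and 0.43 in the knockout arrays, against 0.85, 0.62 and 0.67 in the wild type arrays (limma adjusted p 0.160), and Zfp287, Zfp397 and Peg3 were at -0.27, 0.13 and -0.17. A list of 15 KRAB corepressor and other chromatin genes gave 2 positive and 13 negative differences, where 46.4% of all genes were positive. Their median was -0.13, beside -0.028 over all genes, and 0 were called. The chromatin remodeller Atrx read -0.41, -0.51 and -0.49 in the knockout arrays, against -0.01, -0.25 and 0.10 in the wild type arrays (limma adjusted p 0.154), while the other tested Atrx probes were at -0.39 and 0.18. Smarcad1, also a remodeller, was at -0.64, Uhrf1 at -0.28 (0.084 at its other tested probe) and the H3K9 methyltransferase Setdb1 at -0.21. Trim28 itself was at -0.28 with an adjusted p of 0.379, and its arrays overlapped.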

How the data were processed

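Spot intensity is linear and had been detrended spatially and multiplicatively, with surrogates for signals not above background, in Feature Extraction 10.7.3.1 per the file headers (10.3.1.1 in the submitters' processing notes). The authors' deposited value matrix holds log2 values centred per probe, with the exact scaling not given in the sources used here (column medians -0.07 to 0.03), and served as an alternative.

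Control and outlier spots were dropped, replicate spots averaged as log2, and the 75th percentile of each array subtracted. Of 39429 gene probes, 26651 were tested with limma 3.58.1 (lmFit, eBayes; R 4.3.3). Tests were two-sided, p-values were adjusted by Benjamini-Hochberg over all these probes, and the threshold was 0.05. Exact permutation tests used scipy 1.17.1. On simulated data with the means and spreads of the probes, the fit called 47 of 100 probes moved by log2 1. It called 85 of 100 moved by log2 2, and 7 of 26394 probes that were not moved. The simulated noise was independent, with the same SD in both groups, whereas the wild type SD was larger for 72.8% of genes. These counts therefore do not cover unequal spreads or differences shared by a whole array. Per array 25371 to 27754 probes were well above background, none was saturated, and 3 arrays per group limit the precision. Alternatives changed the background correction, scaling, filter, variance model, array weights, probe choice and the replicates kept.

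A gene was represented by its tested probe of highest mean signal. Values per array were given by rule for Zscan5b, for members whose groups did not overlap or whose unadjusted p was below 0.05, and for the 4 of highest signal; the rest were picked with their values in view. Members and lists were chosen with earlier results of these data known. Symbols of 30 of 30 genes matched RefSeq, used for names only, and positions are mm9.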

Additional observations from a re-analysis of the deposited data

How the results depend on the processing

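Over all probes 124 were called (33 higher, 91 lower). The count was 840 with array weights and 258 with arrays aligned on their median. It was 0 with detection on all arrays, without a filter, under normexp, with a trended and robust variance and with the replicate number as a block, where 5458, 6514, 5785, 6199 and 5153 probes had an unadjusted limma p below 0.05. Leaving out a replicate gave 0 to 2557 calls, with 2557 without wild type replicate 2, 640 without wild type replicate 1 and 0 in the others; fewer arrays enter those fits, and the cause was not tested. Same-numbered arrays of the groups shared only a number, since their deviations correlated at 0.16, 0.23 and -0.14 over probes and not every array correlated best with its own number; with the replicate block Zscan5b stayed at -1.32 (limma adjusted p 0.202) and no family call changed. The 0 family calls became 1 with array weights (Zscan5b) and 0 to 5 when a replicate was left out. The family median ran from 0.0024 to 0.11 over the left-out replicates. The Zscan5b log2 fold change was -1.58 with array weights, -1.55 to -1.08 without 1 replicate, and -0.59 under normexp, whose offset of 50 shrinks the fold of dim probes. The Zkscan1 value turned to -0.00084 with the mean over its probes and the Zkscan5 value to 0.030 under quantile normalization. Pgbd1, Zfp187, Zscan20, Scand1, Zscan21 and Zscan18 kept their sign and stayed uncalled in all 16 alternatives. The slide could not be used as a block because each slide holds 1 group. Dim probes such as Zkscan4 rest on signals near background, which limits their precision. Under normexp the log2 fold change of Zkscan4 was 0.21 and that of Zfp202 was 0.23, both below that of Pgbd1 at 0.34.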

Other observations

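Probes of Zscan29 differed in detection. The probe on mm9 chromosome 2 from 120991660 to 120991719 was well above background on all 6 arrays and read -2.16, -1.94 and -2.06 in the knockout arrays, against -2.45, -2.10 and -2.68 in the wild type arrays. Of the probes from 120986417 to 120986476 and from 120986517 to 120986576, the first was well above background on 1 wild type array only and the second on none. Another probe of that name, from 120985051 to 120985110, is listed in the opposite orientation and was detected on all 6 arrays, with a log2 fold change of 0.082.

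The probes of Zfp369 were high on different wild type arrays. The brighter probe read -3.76, -3.60 and -3.57 in the knockout arrays, against -3.92, -2.50 and -3.71 in the wild type arrays, with replicate 2 standing out. Without wild type replicate 2 its log2 fold change was 0.17, beside -0.27 with all arrays. The dimmer probe read -6.51, -6.22 and -6.60 in the knockout arrays, none well above background, against -4.60, -6.37 and -5.62 in the wild type arrays. Wild type replicate 2 lay below knockout replicate 2, so the groups overlap. The probe entered the test only through the wild type arrays, the group where it was higher. On these arrays the knockout mean was at least 1.58-fold below the wild type mean, with wild type replicate 1 the highest array. This bound allows for the background and not for the spread between arrays, and the difference was not called (limma adjusted p 0.268). The bound compares the wild type mean with the lowest signal well above background on each knockout array, or the probe's own where that was higher.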
